A study of Mus musculus with 4 samples.

Results

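The myosin light chain genes of mouse muscle cells were followed through the 4 RNA-seq libraries of the study. The family comprised 10 genes, taken as the entries whose symbol was Mylpf, Myl1, Myl4, Myl2, Myl3, Myl6, Myl6b, Myl9, Myl12a or Myl12b, out of 24303 gene symbols compared in the total RNA tables and 24437 in the polyA tables. All 10 members were listed in every library. The cells were C2C12, an established line of mouse myoblasts that leaves the cell cycle and fuses into myotubes when growth medium is replaced by differentiation medium (DM). Total RNA depleted of rRNA was sequenced from myoblasts (MB, DM -24 h) and from myotubes (MT, DM 72 h by the sample labels, although a figure legend of the study gives another time for MT). PolyA RNA was sequenced from cells kept in DM for 48 h and transfected with siRNA against hnRNPL, an RNA-binding protein (si-hnRNPL), or with the control siRNA (si-NC). The labels give no genetic change in any of the cultures, and all of them stem from the same line. Each condition had 1 library, so differences cannot be set against a spread between cultures and no test was run. Levels are FPKM, fragments scaled by transcript length and library size, which may be compared between genes of a library. The 95% interval after each level covers the counting and assignment of fragments in that library and nothing else.

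A myosin molecule is built from heavy chains that carry the motor, and each heavy chain holds an essential and a regulatory light chain on the lever arm behind its motor domain. Essential chains stiffen the lever arm and tune the speed of the motor, while phosphorylation of the regulatory chains by light chain kinases switches nonmuscle and smooth muscle myosin on and modulates force in skeletal muscle. Striated muscle uses its own light chain genes for the sarcomere, and nonmuscle myosin, which drives cell division, migration and cortical tension, uses others.

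The regulatory chains of nonmuscle myosin are near copies of each other, which bears on how far their levels can be separated. In the annotation of mm9, Myl12a and Myl12b shared 501 of 519 coding bases (96.5%) and 97.7% of their residues, whereas Myl9 shared 85.5% of coding bases and 94.2% of residues with Myl12a and 93.6% of residues with Myl12b. The opening 120 coding bases, which encode the end of the protein that the kinases phosphorylate, are printed for these genes from the start codon on, and capitals mark the 18 positions at which any of the 3 differ.
Myl12a: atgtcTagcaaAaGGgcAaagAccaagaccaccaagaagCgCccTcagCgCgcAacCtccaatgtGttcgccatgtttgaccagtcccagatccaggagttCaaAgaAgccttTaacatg
Myl12b: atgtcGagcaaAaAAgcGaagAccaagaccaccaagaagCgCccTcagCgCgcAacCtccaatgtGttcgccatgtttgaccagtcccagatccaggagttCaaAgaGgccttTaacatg
Myl9: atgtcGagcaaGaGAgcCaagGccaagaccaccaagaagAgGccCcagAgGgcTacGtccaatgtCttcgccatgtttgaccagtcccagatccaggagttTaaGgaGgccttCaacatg
In this stretch Myl12b differed from Myl12a at 5 positions and Myl9 differed from Myl12a at 17. The division of fragments between Myl12a and Myl12b is therefore uncertain. Over all 20 pairs with the same role, these near copies included, the median protein identity was 68.5%. Between essential and regulatory chains the identity was 28.3% to 35.2% over 25 pairs.

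In MB the nonmuscle chains made up nearly all of the family, and in MT the muscle chains made up more than the nonmuscle chains. The muscle chains summed to 5.77 FPKM in MB, or 0.514% of the summed FPKM of the 10 genes, and to 1005 FPKM in MT, or 54.4%. The family as a whole summed to 1124 FPKM in MB and 1846 FPKM in MT. As a share of the FPKM of named genes it held 0.181% and 0.623%, but the FPKM of named genes itself summed to 621542 in MB and 296284 in MT, so the share rises by more than the level. The nonmuscle chains summed to 1118 FPKM in MB and 841 FPKM in MT. In bulk RNA a larger number of cells of a type and more RNA per cell cannot be told apart. By level the order in MB was Myl6, Myl12a, Myl9, Myl12b, Myl6b, Mylpf, Myl4, Myl1, Myl2 and Myl3, in which the intervals of the neighbours Myl12a and Myl9, Mylpf and Myl4, and Myl2 and Myl3 overlapped. In MT the order was Mylpf, Myl6, Myl1, Myl12a, Myl4, Myl9, Myl12b, Myl6b, Myl2 and Myl3, and 0 of the 9 neighbouring intervals overlapped. Mylpf stood at rank 9848 of 24850 named entries in MB and at rank 16 in MT.

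**Figure D1:**
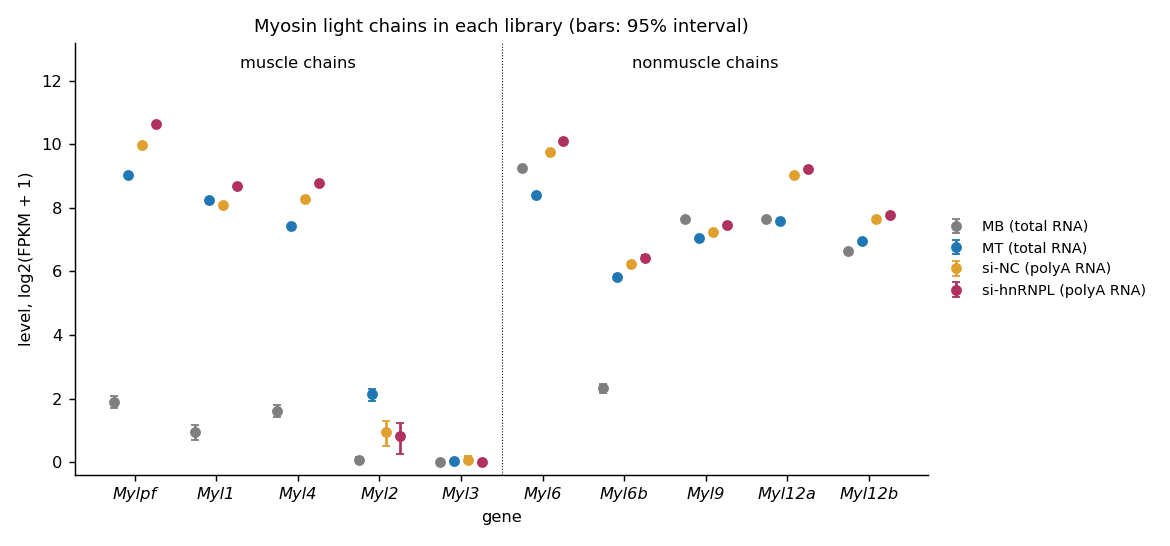
Level of each myosin light chain gene as log2(FPKM + 1), by library, with muscle chains left and nonmuscle chains right of the dotted line and bars for the 95% interval of each library. Mylpf, Myl1 and Myl4 lie near the bottom in MB and at 172 FPKM or more in the other libraries, while Myl3 lies near 0 in all 4.

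Among the essential chains, Myl1, the chain of fast skeletal muscle, had 0.938 FPKM (0.624 to 1.25) in MB and 302 FPKM (297 to 308) in MT. The gene lies on chromosome 1, at 66970870 to 66991630 of mm9, the build of all coordinates of the tables. Its level in MT was 322 times that in MB (interval 230 to 450), and its log2 ratio of (FPKM + 1), the scale used for every change given here as log2, was 7.29 (7.05 to 7.52). Only 2 of the 11403 named genes with a mean of at least 1 FPKM had a larger ratio. Myl4, the essential chain of atrial and embryonic muscle (chromosome 11, 104411977 to 104448533), had 2.07 FPKM (1.70 to 2.44) in MB and 172 FPKM (168 to 175) in MT, a log2 change of 5.81 (5.64 to 5.99). Myl3, the essential chain of ventricular and slow skeletal muscle (chromosome 9, 110666185 to 110672298), was listed at 0 FPKM in MB and 0.0311 FPKM in MT. It stayed at or under 3 fragments in all 4 libraries, so no fold is given.

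The nonmuscle essential chains Myl6 and Myl6b went in opposite directions, although the genes are neighbours on the minus strand of chromosome 10 with 281 bp between them in the annotation. Myl6, the essential chain of nonmuscle and smooth muscle myosin (127927917 to 127930881), was the highest member in MB at 612 FPKM (603 to 620) and had 341 FPKM (335 to 347) in MT, 55.8% of its level in MB and a log2 change of -0.84 (-0.87 to -0.81). Myl6b, an essential chain found in nonmuscle cells and in slow muscle (127931213 to 127935741), had 4.03 FPKM (3.55 to 4.50) in MB and 55.1 FPKM (53.4 to 56.9) in MT. Its ratio was 13.7 (12.1 to 15.5), with a log2 change of 3.48. By log2 change with the added constant of 1, Myl6b stood between Myl4 and Myl2. That order over Myl2 rested on the constant. With constants of 0.1 and 0.01 Myl6b stood at 3.74 and 3.77, below Myl2 at 4.52 and 5.79. The plain ratio of Myl2, on 2 fragments in MB, was 66.0 and also the larger. By level Myl6b was the lowest nonmuscle chain in both libraries.

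Among the regulatory chains, Mylpf, the chain of fast skeletal muscle (chromosome 7, 134355122 to 134357801), had 2.72 FPKM (2.25 to 3.19) in MB and 528 FPKM (522 to 535) in MT. The ratio was 194 (164 to 231) and the log2 change 7.15 (6.97 to 7.34), and 4 genes had a larger change. Myl2, the chain of ventricular and slow skeletal muscle (chromosome 5, 122550989 to 122556863), had 0.0510 FPKM in MB and 3.37 FPKM (2.80 to 3.94) in MT. Its width of interval corresponds to 2 fragments in MB and 139 in MT, so the ratio of 66.0 has a counting interval from 17.9 to 551. Its log2 change was 2.05 and depended on the constant added, with 4.52 for 0.1 and 5.79 for 0.01. The slow and cardiac chains Myl2 and Myl3 thus remained far below the fast chains, with Myl2 at 0.345% of the summed FPKM of the regulatory chains in MT against 54.1% for Mylpf.

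The nonmuscle regulatory chains differed less between MB and MT. Myl9, the regulatory chain best known from smooth muscle (chromosome 2, 156601200 to 156607393), had 201 FPKM (197 to 204) in MB and 132 FPKM (129 to 134) in MT, a log2 change of -0.60 (-0.64 to -0.56). Myl12a (chromosome 17, 71343133 to 71351873) had 202 FPKM (199 to 204) and 190 FPKM (187 to 192), a log2 change of -0.09 (-0.11 to -0.06). It became 0.12 when the median of expressed genes was set to 0 and 0.28 when the tables were scaled without small RNA genes. The small RNA genes left out in this scaling were taken as symbols beginning with Mir, Snor, Rn or Gm. That rule goes by letters alone, so it can take in other genes and miss some small RNA genes. Myl12b (chromosome 17, 71323303 to 71339856) had 100 FPKM (97.7 to 103) and 123 FPKM (121 to 126), a log2 change of 0.30 (0.25 to 0.34). The ratio of Myl12a to Myl12b was 2.01 in MB and 1.54 in MT, given the uncertain division between them.

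With a call defined as a ratio of (FPKM + 1) of at least 1.5 in either direction, the fold of the study's methods, 4 of the 5 muscle chains stood higher in MT, 0 stood lower and Myl3 was not called. With a pseudocount of 0.01 Myl3 was called as well, on 2 fragments in MT. Of the 5 nonmuscle chains 1 was higher (Myl6b), 2 were lower (Myl6 and Myl9) and 2 were not called. Over all named genes 7.87% were called higher and 13.8% lower, and among those with a mean of at least 1 FPKM, which held 9 of the 10 members, 14.5% were called higher and 28.6% lower. The median log2 change was 5.81 for the muscle chains and -0.09 for the nonmuscle chains, beside 0.00 for all named genes and -0.21 for those with a mean of at least 1 FPKM. With Mylpf, Myl1 and Myl4 alone, which had more than 3 fragments in both libraries, the median was 7.15. The calls of Myl6 and Myl9 as lower depended on the scale. Scaled to the same sum of named genes, with symbols beginning with Mir, Snor, Rn or Gm left out, Myl6 stood at -0.47 and Myl9 at -0.23. Neither was called on that scale, which moved the median of expressed genes to 0.16.

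**Figure D2:**
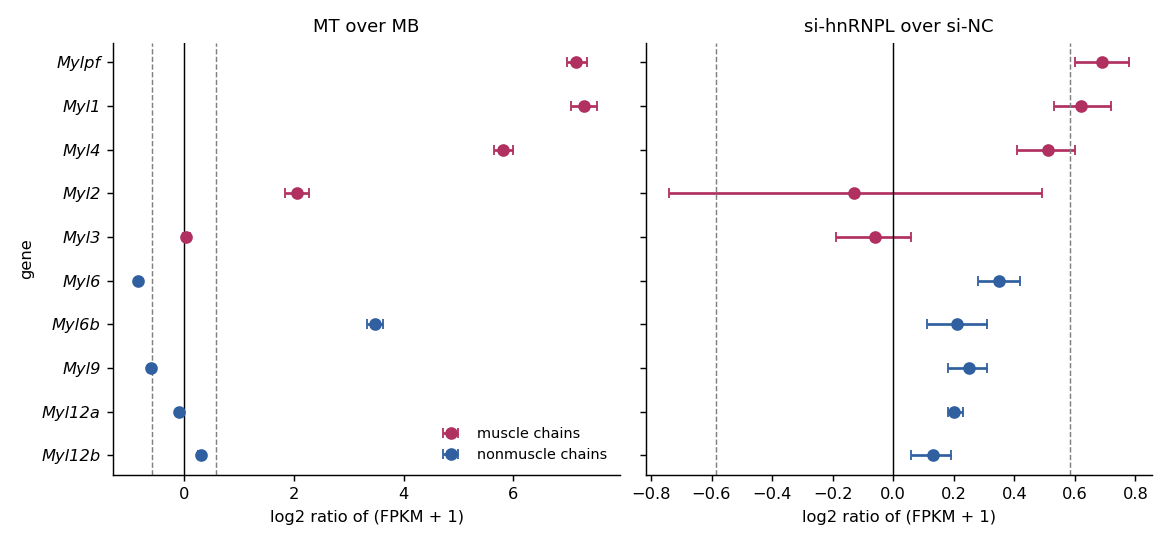
Log2 ratio of (FPKM + 1) of each gene for MT over MB (left) and si-hnRNPL over si-NC (right), on different horizontal scales, with bars for the 95% interval and dashed lines at the 1.5-fold threshold. On the left Myl1, Mylpf and Myl4 lie between 5.81 and 7.29 and Myl6b at 3.48, and on the right Mylpf and Myl1 lie just past the threshold.

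The composition of each class of light chain differed between MB and MT. Myl6 held 98.9% of the summed FPKM of essential chains in MB and 39.2% in MT, where Myl1 held 34.7%, Myl4 19.7% and Myl6b 6.34%. Among regulatory chains Myl12a held 39.9%, Myl9 39.7% and Myl12b 19.8% in MB, and Mylpf held 54.1% in MT. The muscle chains made up 54.4% of the essential and 54.4% of the regulatory sum in MT. Essential chains summed to 619 FPKM and regulatory chains to 505 FPKM in MB, a ratio of 1.22, and to 870 and 976 FPKM in MT, a ratio of 0.891. These shares and ratios are of FPKM and have no interval.

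**Figure D3:**
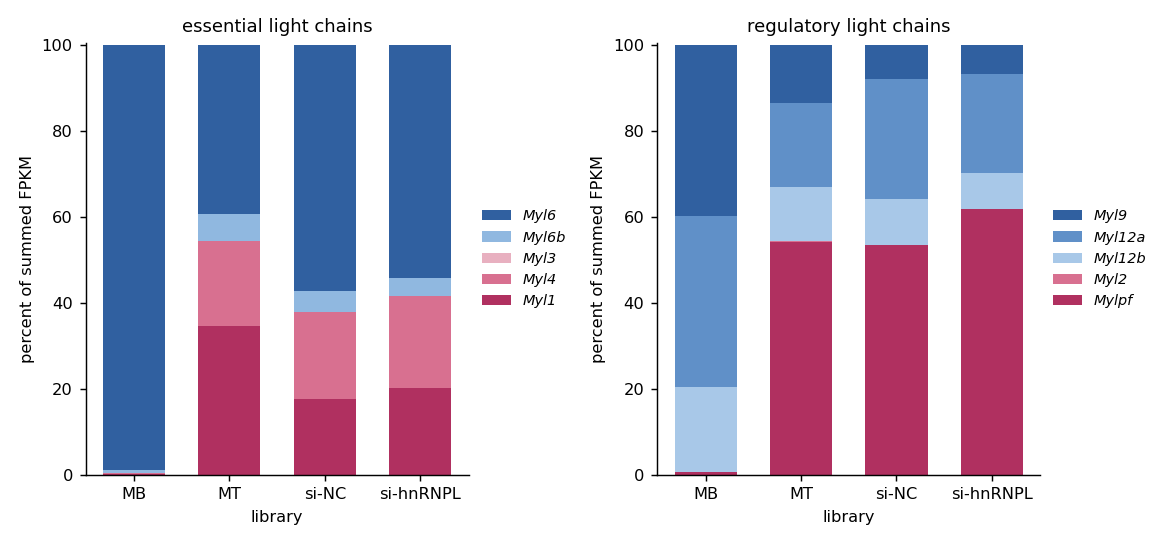
Percent of the summed FPKM of the essential (left) and regulatory (right) light chains held by each gene in each library, with muscle chains in red and nonmuscle chains in blue. Myl6 fills 98.9% of the essential bar in MB and 39.2% in MT, and Mylpf goes from 0.538% of the regulatory bar in MB to 54.1% in MT.

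The light chains are carried by heavy chains. Of 9 sarcomeric heavy chain genes 7 were called higher in MT and 0 lower, and their sum was 0.251 FPKM in MB and 176 FPKM in MT. Centred or scaled without small RNA genes, all 9 were called higher. Embryonic Myh3 led with 0.101 FPKM in MB and 121 FPKM in MT, followed by Myh1 with 0.0834 and 38.9 FPKM. The sarcomeric heavy chain genes are close paralogs, so the division of fragments among them is uncertain. Of 4 nonmuscle and smooth muscle heavy chain genes 1 was called lower, Myh10, with 24.2 FPKM in MB and 9.86 FPKM in MT, while Myh9 had 208 and 140 FPKM. The muscle light chains summed to 23.0 times the sarcomeric heavy chains in MB, where those heavy chains were nearly absent, to 5.70 times in MT, and in the polyA libraries to 8.97 (si-NC) and 11.2 times (si-hnRNPL), and the nonmuscle light chains to 4.81 times the nonmuscle heavy chains in MB, 5.59 times in MT, and in the polyA libraries to 6.89 (si-NC) and 8.62 times (si-hnRNPL). Between si-NC and si-hnRNPL the median log2 change was 0.21 in the shortest twentieth of transcripts and -0.17 in the longest. The part of transcript length in the ratios of light to heavy chains was not tested. The light chain genes Myl7, of the atrium, and Myl10, which were not among the 10, stayed at or below 0.139 FPKM in every library.

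Regulatory light chains are phosphorylated by several kinases and dephosphorylated by myosin phosphatase. Of 10 kinase genes 3 were called higher and 2 lower. Mylk2, the skeletal muscle light chain kinase, had 1.53 FPKM in MB and 8.50 FPKM in MT, Mylk, the smooth muscle and nonmuscle kinase, had 0.175 and 1.82 FPKM, and Mylk4 had 0.0241 and 0.552 FPKM. Cit, the citron kinase of dividing cells, was lower with 8.24 and 1.65 FPKM, as was Cdc42bpb with 21.5 and 12.9 FPKM. Of 7 genes of myosin phosphatase and its inhibitors 2 were called higher, the targeting subunit Ppp1r12b and the inhibitor Ppp1r14c (2.57 FPKM in MB and 18.3 FPKM in MT), and 1 lower, Ppp1r14a. Of 4 chaperone genes of myosin folding, the muscle genes Unc45b and Smyd1 were called higher, with log2 changes of 3.93 and 3.91, and the general genes Unc45a and Hsp90aa1 lower, with -0.71 and -0.72. Scaled without small RNA genes, Cdc42bpb, Unc45a and Hsp90aa1 lost their lower calls, at -0.36, -0.41 and -0.35, as did Myl6 and Myl9. Cdc42bpb, Unc45a and Hsp90aa1 also lost them when centred on the median of expressed genes, as did Myl9 at -0.39. Myl6 kept its call when centred, at -0.63. Ppp1r14a lost its call only when centred, at -0.41, and Cit kept its call in both. Scaling added Rock1 and Ppp1cb to the genes called higher, both at 0.60.

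Promoters of 4 members are printed because they represent the fast chains with the largest changes (Mylpf and Myl1), the nonmuscle chain that was higher in MT (Myl6b) and a nonmuscle chain that was not (Myl9). Each stretch holds the 250 bases before the transcription start in RefSeq, in GRCm38.p6 and not in the build of the tables, and capitals mark the letters CANNTG (the E-box read by MyoD and myogenin), TATAAA and the CArG box of serum response factor, on either strand.
Mylpf (chr7:127211358-127211607, plus strand): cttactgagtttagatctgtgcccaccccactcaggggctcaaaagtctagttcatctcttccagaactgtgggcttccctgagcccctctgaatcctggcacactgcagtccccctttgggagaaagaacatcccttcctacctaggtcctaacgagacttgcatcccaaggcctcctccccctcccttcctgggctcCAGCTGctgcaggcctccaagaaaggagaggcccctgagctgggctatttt
Myl1 (chr1:66945057-66945306, minus strand): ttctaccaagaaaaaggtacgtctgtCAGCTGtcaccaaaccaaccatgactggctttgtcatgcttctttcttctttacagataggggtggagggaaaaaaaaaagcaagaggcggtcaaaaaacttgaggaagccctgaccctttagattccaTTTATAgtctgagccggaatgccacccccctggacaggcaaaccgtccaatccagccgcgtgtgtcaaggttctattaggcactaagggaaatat
Myl6b (chr10:128498686-128498935, minus strand): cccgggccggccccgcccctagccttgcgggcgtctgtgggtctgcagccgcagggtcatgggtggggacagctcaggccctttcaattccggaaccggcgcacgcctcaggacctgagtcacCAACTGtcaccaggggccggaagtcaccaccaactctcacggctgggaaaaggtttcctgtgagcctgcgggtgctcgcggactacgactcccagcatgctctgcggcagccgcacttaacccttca
Myl9 (chr2:156775214-156775463, plus strand): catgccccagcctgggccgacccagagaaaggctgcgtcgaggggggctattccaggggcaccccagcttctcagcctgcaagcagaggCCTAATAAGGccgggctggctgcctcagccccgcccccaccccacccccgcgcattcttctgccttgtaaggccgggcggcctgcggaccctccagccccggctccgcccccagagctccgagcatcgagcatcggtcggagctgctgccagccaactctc
Windows of 250 bases before to 50 after the start were found for all 10 members (12 windows) and searched on both strands, as were 32851 windows of the whole table. CANNTG was in a window of 9 members, Myl4 being the exception, and in 72.3% of all windows. The form CAGCTG, which is part of CANNTG, was in 3 muscle chains (Mylpf at position -51 from the start, Myl1 at -224, and Myl2) and in 1 nonmuscle chain (Myl12a), against 16.3% of all windows. CACCTG was in 1 muscle and 3 nonmuscle chains and in 20.2% of windows, and TATAAA in 2 muscle chains (Myl1 at -95, and Myl2) and 13.6% of windows. The CArG box was in 3 members, Myl3, Myl6 and Myl9 (at -161), and in 1.63% of windows, and the MEF2 site in 0 members and 1.86% of windows. A member was counted if any of its windows matched, while the shares are of single windows, so the measures are not alike. Myl2 and Myl6 had 2 windows each, and Myl2 held TATAAA and Myl6 the CArG box in only 1. All of these motifs are matches of letters and not tested sites.

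In the polyA libraries the transcript of the targeted gene was slightly lower. Hnrnpl had 95.1 FPKM (92.7 to 97.5) in si-NC and 85.9 FPKM (83.1 to 88.7) in the library labelled si-hnRNPL, a log2 change of -0.14. That is not past the threshold, so within these libraries the directions given for this pair rest on the label. The study examined the protein by Western blot and reports hnRNPL as knocked down in cells given hnRNPL siRNA and 48 h of DM. It does not state whether the sequenced cultures were among them.

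Between these libraries the fast muscle chains were higher in the library labelled si-hnRNPL. Mylpf had 998 FPKM (954 to 1042) in si-NC and 1612 FPKM (1541 to 1683) in si-hnRNPL, a ratio of 1.61 (1.52 to 1.72) and a log2 change of 0.69. Myl1 had 269 FPKM (257 to 281) and 415 FPKM (396 to 434), a ratio of 1.54 (1.45 to 1.65). Myl4 had 307 FPKM (292 to 321) and 436 FPKM (414 to 457), a ratio of 1.42 (1.33 to 1.52) that was not called. The intervals of each of these genes did not overlap between the libraries, but the intervals hold no spread between cultures. Myl2 had 0.931 FPKM (0.415 to 1.45) and 0.770 FPKM (0.188 to 1.35), and Myl3 was listed at 0.0445 and 0 FPKM.

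The nonmuscle chains all stood slightly higher in the library labelled si-hnRNPL, and 0 of 5 were called. Myl6 had 869 FPKM (840 to 898) in si-NC and 1107 FPKM (1069 to 1146) in si-hnRNPL, a log2 change of 0.35. Myl6b had 73.8 FPKM (70.5 to 77.1) and 85.5 FPKM (81.1 to 89.9), a log2 change of 0.21. Myl9 had 149 FPKM (145 to 154) and 177 FPKM (171 to 183), a log2 change of 0.25. Myl12a, with 519 FPKM (512 to 525) and 598 FPKM (589 to 606), had a log2 change of 0.20, and Myl12b, with 200 FPKM (194 to 206) and 218 FPKM (211 to 226), had 0.13.

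Of the 10 members 2 were thus called higher and 0 lower in this comparison. Over all named genes 0.614% were called higher and 0.409% lower, and among the 11190 with a mean of at least 1 FPKM, which held 8 members, 1.18% and 0.840%. The median log2 change was 0.51 for the muscle chains and 0.21 for the nonmuscle chains, beside 0.00 for all named genes and -0.01 for those with a mean of at least 1 FPKM. Mylpf had 80 genes with a larger ratio and Myl1 had 107. A figure legend of the study gives a slightly larger fold for this comparison, past which Mylpf lies and Myl1 does not. Centred on the median of expressed genes the calls stayed at 2, but Myl1 at 0.52 lost its call when the tables were scaled without small RNA genes. In the library labelled si-hnRNPL the muscle chains made up 53.0% of the family against 46.5% in si-NC, and Mylpf 61.9% of the regulatory chains against 53.5%.

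Transcript length and the state of the cells moved with this result. The light chain transcripts are short, 665 to 1937 bases in the annotation, and expressed protein-coding genes in the shortest twentieth (up to 954 bases, 526 genes) had a median log2 change of 0.21, against -0.17 in the longest twentieth. With the median of the same twentieth of length subtracted, an alternative chosen after seeing the data, Mylpf stood at 0.48, Myl1 at 0.49 and Myl4 at 0.29, and 0 members were called. By the same subtraction the nonmuscle chains stood nearer to no change, Myl6 at 0.14, Myl6b at 0.08, Myl9 at 0.11, Myl12a at 0.15 and Myl12b at -0.01. Of 5 myotube markers 2 were called higher in the library labelled si-hnRNPL (Ckm and Acta1). All 5 summed to 2033 FPKM in si-NC and 2861 FPKM in si-hnRNPL. Of 3 proliferation markers 2 were called lower (Mki67 and Top2a), and all 3 summed to 128 and 89.5 FPKM. The part of these differences in the change of the light chains was not tested. Of the heavy chains, light chain kinases, phosphatase genes and myosin chaperones 0 were called in either direction, with Myh3 at 162 FPKM in si-NC and 209 FPKM in si-hnRNPL and Unc45b at 7.26 and 10.4 FPKM. Scaled without small RNA genes, 1 was called higher, Ppp1r14a, which had 0.108 FPKM (0 to 0.324) and 0.497 FPKM (0 to 1.07). These intervals overlapped and reached 0. The scaling was applied before the constant of 1 was added, which changes the weight of the constant for low genes.

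**Figure D4:**
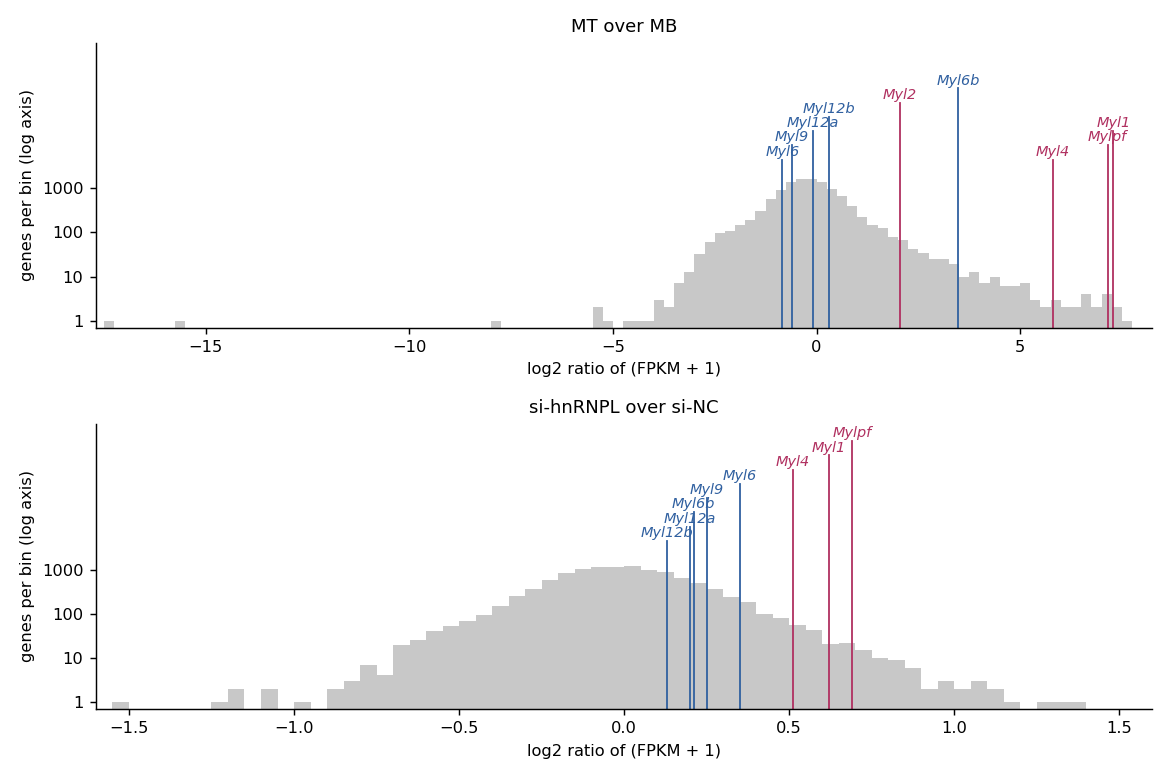
Number of named genes with a mean of at least 1 FPKM in each bin of the log2 ratio of (FPKM + 1), on a log axis, for MT over MB (top, bins of 0.25) and si-hnRNPL over si-NC (bottom, bins of 0.05, with 28 genes beyond 1.6 in either direction not shown), with lines at the members that passed the same filter (muscle chains red, nonmuscle chains blue). Myl1 and Mylpf stand at the far right in the top panel, and in the bottom panel all 8 members drawn lie to the right of 0.

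Set side by side, MT and si-NC differ in RNA selection, time in DM and siRNA transfection, which the labels give for si-NC only. For Mylpf, Myl2 and Myl6 they also differ in the locus given in the tables, so no fold between MT and si-NC is given. Myl6 was the highest essential chain in si-NC with 57.2% of the sum, above Myl4 with 20.2% and Myl1 with 17.7%, and Mylpf was the highest regulatory chain with 53.5%. In si-hnRNPL the intervals of Myl4 and Myl1 overlapped.

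Likeness to Mylpf was measured over the 4 libraries, which mixes both kinds of library and both loci of Mylpf and is a description only. By Euclidean distance between centred log2(FPKM + 1) profiles, among 6578 genes with a mean of at least 10 FPKM, the 5 nearest to Mylpf were Tnnt3 (0.55), Actc1 (0.59), Tnni2 (0.63), Tnnc2 (0.63) and Mybph (0.72), which encode troponin subunits, cardiac actin and a myosin-binding protein. Tnni2, for example, had 0.809 FPKM in MB, 175 FPKM in MT, 300 FPKM in si-NC and 441 FPKM in si-hnRNPL. Myl1 was in place 7 and Myl4 in place 9, while Myl6b, the nearest nonmuscle chain, was in place 43.

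Markers of myotubes and of dividing cells followed the labels of MB and MT. All 5 myotube markers were called higher in MT (sums of 112 and 1286 FPKM) and all 3 proliferation markers lower (329 and 58.6 FPKM). Smooth muscle genes were present, with Acta2 at 437 FPKM in MB and 367 FPKM in MT, Tagln at 239 and 78.6 FPKM and Cnn1 at 51.9 and 1.35 FPKM, whereas the smooth muscle heavy chain Myh11 was at or below 0.0994 FPKM in every library. Of the 4 smooth muscle markers 2 were called lower in MT, and 0 were called between si-NC and si-hnRNPL. Their sums in the polyA libraries were 656 and 909 FPKM. Myl9 was called lower in MT too, but not when centred or scaled without small RNA genes. The part of the smooth muscle genes in the levels of Myl9 was not tested. Of 4 cardiac markers 2 were called higher in MT (Myh6 and Tnni3) and 1 lower in si-hnRNPL (Nppb), but they summed to at most 4.16 FPKM in any library, leukocyte markers to at most 1.13 FPKM, and endothelial, adipocyte and neuron markers to at most 0.0446 FPKM.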

How the data were processed

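RNA-seq of C2C12 cells comprised 4 libraries, 1 each of MB and MT (total RNA depleted of rRNA) and of si-NC and si-hnRNPL (polyA RNA). Reads were trimmed, mapped to mm9 with TopHat and quantified with Cufflinks by the authors, who deposited FPKM values with 95% intervals for 61630 entries (24850 named) of total RNA and 24992 of polyA RNA. No read counts were used, and the intervals correspond to 59960176 and 54442423 fragments in MB and MT and to 21341051 and 14592480 in si-NC and si-hnRNPL, which in the polyA libraries are no read counts.

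For the changes, entries that failed quantification were dropped, and for a symbol with several entries that with the highest summed FPKM was kept. For the likeness profiles and the heavy chain sums, the highest entry of each symbol was taken in each library separately. Failed entries were not dropped there. Changes were computed as log2 of the ratio of (FPKM + 1), which understates changes of low genes, with both intervals carried to the log scale and added in quadrature. A call was a ratio of at least 1.5. Identities came from global alignment of GENCODE transcripts of mm9, promoters from RefSeq. Calculations used Python 3.11.15, numpy 2.4.6, pandas 2.3.3, biopython 1.88 and matplotlib 3.10.9. The calculation of changes was also run on simulated counts with known folds. The simulated intervals were built from the same counting rule, so this run cannot show how well the deposited intervals fit. The members, lists and alternatives were chosen with earlier results of these data known. The genes named were all members, genes of the pathway lists, Hnrnpl, markers, and the 5 genes nearest to Mylpf and to Myl9.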

Additional observations from a re-analysis of the deposited data

How the results depend on the processing

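No paired analysis was possible because each condition had 1 library and the labels give no replicate numbers, and leaving out a library was not possible for the same reason. The intervals hold no spread between cultures, so they cannot show whether a difference would recur. For MT over MB the median of the muscle chains (5.81) became 6.31 and 6.37 with pseudocounts of 0.1 and 0.01, 6.48 with members of at least 1 FPKM, 6.02 when centred on expressed genes, 6.51 when scaled without small RNA genes, 6.14 and 6.10 with the median of the same twentieth of transcript length or GC content subtracted, and 4.65 with Myl6b among the muscle chains. The median of the nonmuscle chains (-0.09) became 0.12 when centred, 0.28 when scaled, 0.24 and 0.16 with length or GC subtracted, and -0.34 without Myl6b. The 4 muscle chains called higher became 5 with a pseudocount of 0.01, Myl3 being added. The 2 nonmuscle chains called lower became 1 when centred, 1 with GC subtracted, and 0 when scaled, with length subtracted, or at a fold of 2, and the 1 called higher became 2 when scaled or with length subtracted, Myl12b being added. For si-hnRNPL over si-NC the median of the muscle chains (0.51) became 0.62 with members of at least 1 FPKM, 0.41 when scaled, 0.29 with length subtracted and 0.36 with Myl6b, and that of the nonmuscle chains (0.21) became 0.11 when scaled and 0.11 with length subtracted. The 2 muscle chains called higher became 1 when scaled and 0 with length subtracted or at a fold of 2. The cause was not tested. The length and GC alternatives, and those for the pathway lists, were chosen after seeing the data, and length and GC used transcripts of 91.1% and 94.6% of expressed genes. Of single members, the sign of Myl12a for MT over MB turned in 4 alternatives (0.12 to 0.28) and that of Myl12b for si-hnRNPL over si-NC in 1 (-0.01). Summing entries with the same symbol changed none of these medians or counts. Low levels limit Myl2 and Myl3, at or below 0.931 FPKM in the polyA libraries.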

Other observations

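Likeness was also measured to Myl9, a regulatory chain called lower in MT, but not when centred or scaled without small RNA genes. By the same distance as for Mylpf, the 5 genes nearest to Myl9 were Psma2 (0.03) and Psmb6 (0.04), which encode subunits of the proteasome, Vamp8 (0.05), a protein of vesicle fusion, Cox5a (0.05), a subunit of cytochrome c oxidase, and Tbcb (0.06), a tubulin folding cofactor. Psma2 had 186 FPKM in MB, 125 FPKM in MT, 139 FPKM in si-NC and 164 FPKM in si-hnRNPL, beside 201, 132, 149 and 177 FPKM for Myl9. Myl12b, the light chain closest to Myl9 by this measure, was in place 5142 of 6578 genes at a distance of 1.11, and Myl6 was in place 5165 at 1.12. The distances rest on 4 libraries of 2 kinds and are a description.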
